A study of Homo sapiens with 18 samples.

Results

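The expression of 10 genes of drug efflux and xenobiotic metabolism was followed through SYK knockdown in 3 lung cancer cell lines. The 10 were 6 pumps that expel drugs and their conjugates from the cell (ABCC1, ABCC2, ABCC3, ABCC4, ABCC5 and ABCG2) and 4 enzymes that oxidise or hydrolyse foreign and signalling molecules (CYP1B1, CYP2S1, CYP24A1 and EPHX1). They were taken by symbol out of the 58302 genes that the tables list, and all 10 were found. ABCC3 and CYP2S1 were chosen by their FPKM, which had been seen lower in shSYK cells of every line, so their changes are described here without a test. The other 8 were read from a fit of each whole table.

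The sequenced RNA came from cultures of EBC-1, PC-9 and HCC827 that carried either a negative control (nc) or an shRNA against SYK (shSYK), a tyrosine kinase. EBC-1 has an amplified MET gene, and PC-9 and HCC827 have an exon 19 deletion in EGFR. Each of the 6 groups had 3 libraries, 18 in all, and no drug treatment is named for any of them. The knockdown was stable, delivered by lentivirus, and rested on a single shRNA, so an effect of SYK loss and an effect of this shRNA on other transcripts cannot be told apart. Nothing says that the 3 libraries of a group came from separate cultures, so the p-values below measure the spread between these libraries, which may be technical.

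Drug-metabolising cells handle foreign molecules in steps. Phase I enzymes, which include cytochromes P450 and epoxide hydrolases, add or expose a reactive group, phase II enzymes attach glutathione, glucuronate or sulfate, and ATP-binding cassette (ABC) pumps export the product. ABCC1 to ABCC5 encode the multidrug resistance proteins MRP1 to MRP5, and ABCG2 encodes the breast cancer resistance protein, for which several tyrosine kinase inhibitors are substrates. Many of these genes answer to ligand-activated factors, among them AHR with its partner ARNT and VDR with its partner RXRA. Some answer to NFE2L2, a transcription factor of the oxidative stress response that KEAP1 restrains.

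Between 7920099 and 15729103 reads per library lay on genes (median 11651793). Levels are given as FPKM, fragments scaled by gene length and by library, as deposited, and fold changes are differences of log2(FPKM + 1), shSYK minus nc, which understate the change of low genes. SYK itself ranged from 13.1 to 15.1 FPKM in nc and from 7.25 to 7.63 in shSYK libraries of EBC-1, from 6.04 to 7.31 and 1.64 to 2.35 in PC-9, and from 8.45 to 9.74 and 2.46 to 3.36 in HCC827. EPCAM, CDH1, KRT8 and KRT18, the epithelial markers, were at 31.0 FPKM or more in all libraries. EBC-1 is listed by the study as a squamous line, and the squamous markers KRT5 and KRT6A had no read in it, while TP63 reached at most 16 reads. The leukocyte gene PTPRC had at most 14 reads and the fibroblast genes COL1A2 and COL3A1 at most 6. COL1A1, the third fibroblast marker, was present, with nc means of 2.32 FPKM for EBC-1, 6.83 for PC-9 and 1.03 for HCC827 and shSYK means of 1.97, 6.69 and 1.54, without overlap in HCC827. Of the endothelial markers, PECAM1 was at 13.4 ± 0.903 FPKM (SD, n = 3) in PC-9 nc cells and 4.98 ± 0.601 in shSYK cells, and CDH5 was at 2.42 and 2.38 there. KRT5 in turn was at 20.7 FPKM in PC-9 nc and 138.4 in shSYK cells. KRT6A went from 0.723 to 1.80 FPKM in PC-9 and from 12.2 to 3.08 in HCC827. CDH1 was lower in shSYK cells of each line, at 81.25%, 81.7% and 73.7% of the nc mean in EBC-1, PC-9 and HCC827. EPCAM was higher in EBC-1 and PC-9. In HCC827, the lung adenocarcinoma markers NKX2-1 and NAPSA went from 54.1 to 43.1 and from 87.1 to 47.8 FPKM. In PC-9 nc cells they were at 1.93 and 0.336, and SFTPB was under 1 FPKM in every line. Whether such shifts of markers have a part in the results was not tested. PC-9 nc replicate 1 stood apart, with an FPKM sum of 342216.2 against 274906.9 and 301347.0 in the other nc libraries of that line, and the PC-9 fold changes of the 10 genes without it are given below.

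**Figure D1:**
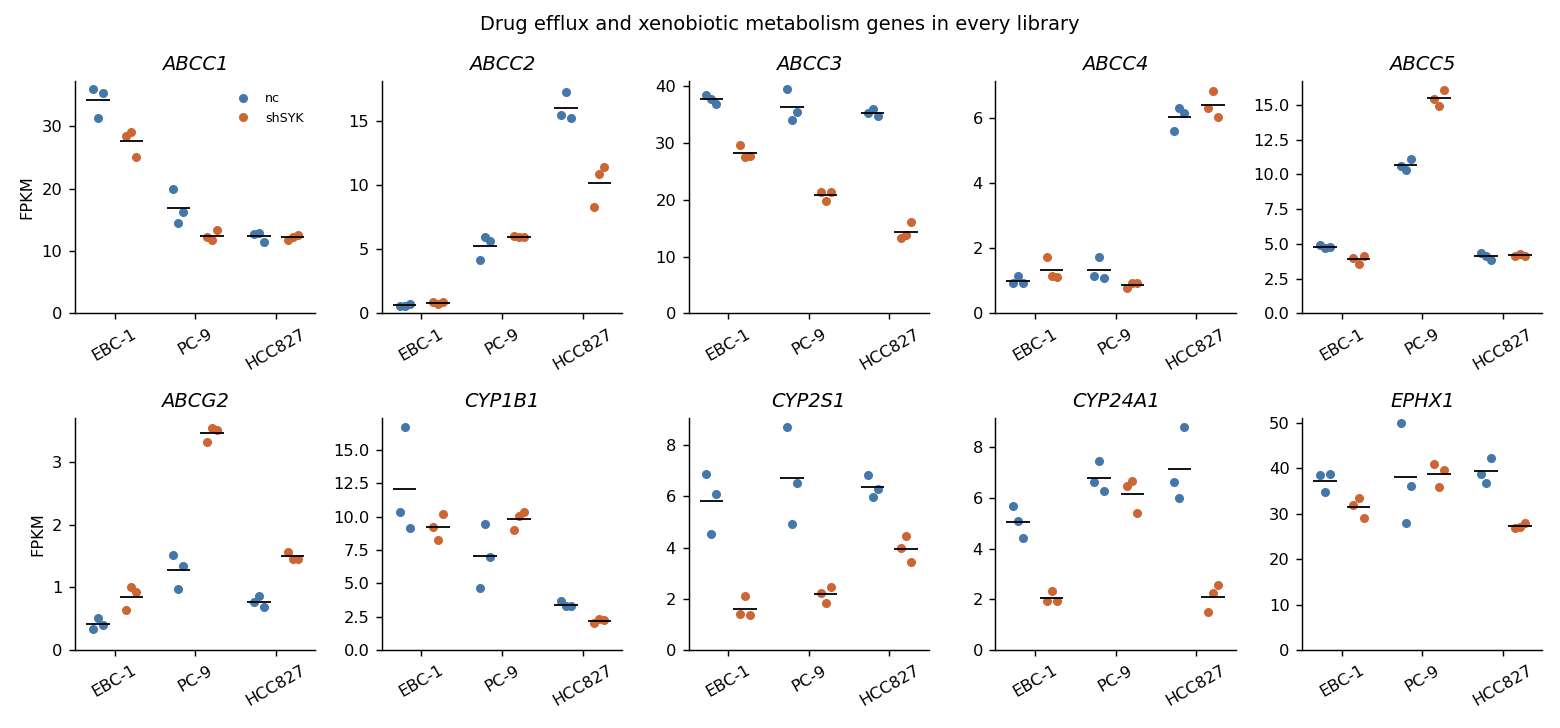
FPKM (vertical axis, linear, from 0) of the 10 genes in each of the 18 libraries, by cell line, with nc in blue, shSYK in orange and a bar at the mean of 3 libraries. ABCC3 and CYP2S1 were lower in every shSYK library than in any nc library of the line, ABCG2 was higher in every shSYK library, and ABCC5 was lower in EBC-1 and higher in PC-9.

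ABCC3 (ENSG00000108846, chromosome 17 of hg38, positions 50634777 to 50692252) encodes MRP3, a pump of the basolateral membrane that exports glucuronides and bile salts. It was the most even of the pumps between the control cells, with 37.7 ± 0.842 FPKM (SD, n = 3) for EBC-1, 36.3 ± 2.90 for PC-9 and 35.3 ± 0.563 for HCC827. In EBC-1, the nc libraries held 38.5, 37.7 and 36.8 FPKM and the shSYK libraries 29.6, 27.5 and 27.8. In PC-9, they held 39.6, 34.0 and 35.4 in nc and 21.3, 19.8 and 21.4 in shSYK. In HCC827, they held 35.3, 35.9 and 34.8 in nc and 13.3, 13.8 and 16.2 in shSYK. The groups were apart in each line (as were those of 3.09% of the 12672 genes at a mean of 1 FPKM or more over the 18 libraries, in this direction), and the share of the nc level kept by shSYK cells was 75.2% for EBC-1, 57.4% for PC-9 and 40.8% for HCC827. The log2 fold change was -0.40 (standard error, SE, 0.062) for EBC-1, -0.77 (0.10) for PC-9 and -1.24 (0.076) for HCC827. In a bulk sample, fewer cells that express a gene and less RNA of it per cell cannot be told apart, here or below. Rescaling the EBC-1 libraries to an equal sum, which moves the median of all genes there from 0.0090 to 0.13, left ABCC3 at -0.28.

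ABCC1 (ENSG00000103222, chromosome 16, 15949577 to 16143074) encodes MRP1, which exports glutathione conjugates and anthracyclines. In EBC-1, where it was highest, the nc libraries held 36.0, 31.2 and 35.3 FPKM and the shSYK libraries 28.4, 29.1 and 25.1. It fell there by 0.30 on the log2 scale (SE 0.086, limma adjusted p = 0.0248), and the groups did not overlap. Over all genes tested, 44.7% changed in EBC-1. That call was lost after rescaling to an equal sum (adjusted p = 0.0867), with no filter on low genes (0.0611), and without nc replicate 1 (0.0965), nc replicate 3 (0.0802), shSYK replicate 1 (0.0519) or shSYK replicate 3 (0.0619). In PC-9, values of 19.9, 14.5 and 16.3 FPKM in nc and 12.3, 11.8 and 13.3 in shSYK gave a log2 fold change of -0.40 (95% interval -0.71 to -0.093, adjusted p = 0.198). That fall passed the threshold after rescaling to an equal sum (0.0368), with quantile normalization (0.0495), under limma-voom on reads recovered from the FPKM (0.0373) and in a fit of all 18 libraries (0.0147). PC-9 nc libraries varied by 2.78 FPKM (SD), against 0.768 among its shSYK libraries. In HCC827, ABCC1 was at 12.4 ± 0.840 FPKM in nc and 12.2 ± 0.349 in shSYK cells, with a log2 fold change of -0.017 (95% interval -0.17 to 0.13).

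ABCC2 (ENSG00000023839, chromosome 10, 99782732 to 99852192) encodes MRP2, a pump of the apical membrane that exports conjugated bilirubin and other conjugates. It was the pump with the widest range between lines, from 0.637 FPKM in EBC-1 nc cells to 16.0 in HCC827 nc cells. In HCC827, the nc libraries held 15.5, 17.3 and 15.3 FPKM and the shSYK libraries 8.27, 10.9 and 11.4. It fell there by 0.61 on the log2 scale (SE 0.11, limma adjusted p = 0.00560), with no overlap, and 38% of all genes tested changed in that line. The call held under every alternative tried, with adjusted p between 0.000188 and 0.0260. In PC-9, values of 4.15, 5.94 and 5.65 FPKM in nc overlapped those of 6.02, 5.93 and 5.93 in shSYK (log2 fold change 0.17, 95% interval -0.13 to 0.47, adjusted p = 0.598). In EBC-1, ABCC2 lay under the filter of 1 FPKM, with 0.617, 0.546 and 0.748 FPKM in nc and 0.904, 0.700 and 0.897 in shSYK, on 43 to 92 reads.

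ABCC4 (ENSG00000125257, chromosome 13, 95019829 to 95301446) encodes MRP4, which exports cyclic nucleotides and prostaglandins. It passed the threshold in no line. It was low in EBC-1, with 0.918, 1.15 and 0.932 FPKM in nc and 1.72, 1.15 and 1.12 in shSYK (log2 fold change 0.21, adjusted p = 0.237). In PC-9, it was 1.16, 1.73 and 1.09 in nc and 0.785, 0.921 and 0.920 in shSYK, so the groups did not overlap, on 73 to 157 reads (log2 fold change -0.30, 95% interval -0.63 to 0.030, adjusted p = 0.366). PC-9 shSYK cells averaged under the filter, and ABCC4 passed it there through the nc group. In HCC827, the highest line, 6.02 ± 0.381 FPKM in nc and 6.39 ± 0.407 in shSYK overlapped (log2 fold change 0.073, 95% interval -0.091 to 0.24). With limma-voom, the log2 fold change in EBC-1 was 0.50 (adjusted p = 0.0442).

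ABCC5 (ENSG00000114770, chromosome 3, 183919934 to 184018015) encodes MRP5, which exports cyclic nucleotides and nucleotide analogues. It moved in opposite directions in EBC-1 and PC-9. In PC-9, the nc libraries held 10.6, 10.3 and 11.1 FPKM and the shSYK libraries 15.4, 14.9 and 16.1. The rise of 0.50 (SE 0.090) had a limma adjusted p of 0.0440, in a line where 2.09% of all genes tested changed. Its size stayed between 0.47 and 0.53 under every alternative, and the call was lost with no filter (adjusted p = 0.0710) and without nc replicate 3 (0.202), shSYK replicate 1 (0.223), shSYK replicate 2 (0.188) or shSYK replicate 3 (0.229). In EBC-1, ABCC5 fell from 4.94, 4.68 and 4.79 FPKM in nc to 3.99, 3.56 and 4.10 in shSYK (log2 fold change -0.25, SE 0.075, limma adjusted p = 0.0291). That fall lost its call after rescaling to an equal sum (0.167), under limma-voom (0.0648), with no filter (0.0612), and without nc replicate 1 (0.0984), nc replicate 3 (0.0777), shSYK replicate 1 (0.0651) or shSYK replicate 2 (0.105). HCC827 gave 4.11 ± 0.229 FPKM in nc and 4.17 ± 0.114 in shSYK cells (log2 fold change 0.018, 95% interval -0.13 to 0.17). The antisense gene ABCC5-AS1 within it had at most 3 reads in any library.

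ABCG2 (ENSG00000118777, chromosome 4, 88090264 to 88231322) was the only one of the 10 genes whose shSYK libraries lay above all nc libraries in every line. It was scarce throughout, at 23 to 217 reads per library. In PC-9, the nc libraries held 1.52, 0.976 and 1.35 FPKM and the shSYK libraries 3.32, 3.54 and 3.52, which is 270.1% of the nc mean. In HCC827, 0.770, 0.860 and 0.689 FPKM in nc stood against 1.57, 1.46 and 1.45 in shSYK. In EBC-1, 0.344, 0.506 and 0.402 in nc stood against 0.632, 1.01 and 0.925 in shSYK. The nc mean was thus exceeded by a factor of 2.70 in PC-9, 1.93 in HCC827 and 2.05 in EBC-1. The rise in PC-9 was 0.97 on the log2 scale (SE 0.12, limma adjusted p = 0.0132). In HCC827, the log2 fold change was 0.49 (SE 0.098). ABCG2 passed the filter there only through the group where it is high, so it is not counted among the calls of that line. With no filter, its adjusted p in HCC827 was 0.0228. EBC-1 fell under the filter, and with no filter its log2 fold change was 0.38 (95% interval 0.095 to 0.67, adjusted p = 0.0883). The PC-9 call was lost with no filter (0.0639) and without nc replicate 3 (0.0979), shSYK replicate 1 (0.0945), shSYK replicate 2 (0.0980) or shSYK replicate 3 (0.0959). Among the 12672 genes at a mean of 1 FPKM or more over the 18 libraries, 3.27% were higher in every shSYK library of each line without overlap. ABCG2 reached that mean through its shSYK libraries, at 1.94 FPKM over the 3 lines against 0.824 in nc.

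Promoter windows of the pumps that moved are shown for a view of the sequence around their start sites, each 250 bases before to 50 after the start, from RefSeq on GRCh38.p14. Windows were found for 6 of the 10 genes: ABCC2, ABCC4, ABCC5, ABCG2, CYP2S1 and EPHX1. Capitals mark matches, on either strand, to the AHR core GCGTG, the antioxidant element TGACNNNGC bound by NFE2L2, and the Sp1 box GGGCGG. These letters occur in 36.5%, 13.4% and 45.0% of the 35116 promoters of the table, so a match describes the window and is not a bound site. The ABCC2 window (chr10:99782390-99782689, plus strand), of the pump that fell in HCC827, holds none of the 3. The ABCC5 window (chr3:184017835-184018134, minus strand) holds 1 AHR core and 1 Sp1 box. ABCG2 has 5 start sites in the table, of which the farthest upstream (chr4:88231577-88231876, minus strand) has 3 CpG dinucleotides and no match, and a downstream one (chr4:88158810-88159109, minus strand) has 33 CpG dinucleotides, 2 AHR cores and 2 Sp1 boxes. Gene-level FPKM does not say which start was used.
ABCC2: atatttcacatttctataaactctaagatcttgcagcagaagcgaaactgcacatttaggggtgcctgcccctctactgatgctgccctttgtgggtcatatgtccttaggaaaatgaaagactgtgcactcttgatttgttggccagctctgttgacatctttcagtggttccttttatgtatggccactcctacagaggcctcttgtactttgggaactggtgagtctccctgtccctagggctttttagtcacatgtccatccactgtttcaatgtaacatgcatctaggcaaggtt
ABCC5: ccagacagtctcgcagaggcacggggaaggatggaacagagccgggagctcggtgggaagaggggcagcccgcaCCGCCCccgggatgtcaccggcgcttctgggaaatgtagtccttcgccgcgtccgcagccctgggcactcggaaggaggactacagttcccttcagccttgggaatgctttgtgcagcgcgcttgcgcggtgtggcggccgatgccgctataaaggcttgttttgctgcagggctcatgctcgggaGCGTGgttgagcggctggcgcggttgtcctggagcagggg
ABCG2, upstream start: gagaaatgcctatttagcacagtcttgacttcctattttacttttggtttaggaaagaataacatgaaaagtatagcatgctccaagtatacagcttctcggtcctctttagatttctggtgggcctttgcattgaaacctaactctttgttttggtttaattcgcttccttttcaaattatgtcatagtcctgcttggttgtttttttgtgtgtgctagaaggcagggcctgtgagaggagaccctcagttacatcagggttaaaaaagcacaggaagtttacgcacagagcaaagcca
ABCG2, downstream start: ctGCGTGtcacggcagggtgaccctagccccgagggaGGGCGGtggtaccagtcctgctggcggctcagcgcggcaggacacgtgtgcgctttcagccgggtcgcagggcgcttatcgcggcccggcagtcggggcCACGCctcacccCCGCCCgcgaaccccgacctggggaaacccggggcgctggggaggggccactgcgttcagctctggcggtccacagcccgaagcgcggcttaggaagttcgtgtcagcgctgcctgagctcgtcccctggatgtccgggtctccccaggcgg

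CYP2S1 (ENSG00000167600, chromosome 19, 41193049 to 41207539) encodes a cytochrome P450 of epithelia outside the liver. Like ABCC3, it had been chosen for its fall. In EBC-1, the nc libraries held 6.86, 4.52 and 6.11 FPKM and the shSYK libraries 1.41, 2.11 and 1.36. In PC-9, they held 8.71, 4.91 and 6.51 in nc and 2.22, 1.85 and 2.47 in shSYK. In HCC827, they held 6.83, 5.98 and 6.30 in nc and 4.01, 4.45 and 3.44 in shSYK. The shSYK libraries were below the nc libraries in each line, at 27.9%, 32.5% and 62.2% of the nc mean, which is the reverse of the order of ABCC3. The log2 fold change was -1.38 (SE 0.16) for EBC-1, -1.25 (0.18) for PC-9 and -0.57 (0.090) for HCC827. These values are compressed by the pseudocount, and with a pseudocount of 0.1 they were -1.79 in EBC-1 and -1.55 in PC-9. Its promoter window (chr19:41192969-41193268, plus strand), shown because this gene fell in each line, holds 29 CpG dinucleotides and 3 Sp1 boxes, all read on the opposite strand, and neither of the other 2 letter patterns.
CYP2S1: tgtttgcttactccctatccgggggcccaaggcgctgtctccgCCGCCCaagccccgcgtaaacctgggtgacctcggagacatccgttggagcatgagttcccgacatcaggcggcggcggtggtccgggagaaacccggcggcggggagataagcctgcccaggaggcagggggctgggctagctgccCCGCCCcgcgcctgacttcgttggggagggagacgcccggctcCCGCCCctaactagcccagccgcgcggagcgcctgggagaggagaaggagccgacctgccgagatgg

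CYP24A1 (ENSG00000019186, chromosome 20, 54153449 to 54173973) encodes the mitochondrial hydroxylase that inactivates active vitamin D, and it is a classical target of VDR and RXRA. It fell steeply in EBC-1 and HCC827. In EBC-1, the nc libraries held 5.68, 5.08 and 4.42 FPKM and the shSYK libraries 1.93, 2.35 and 1.94, a log2 fold change of -0.98 (SE 0.10, limma adjusted p = 0.000554). In HCC827, 6.62, 6.02 and 8.81 FPKM in nc stood against 1.51, 2.25 and 2.56 in shSYK, a log2 fold change of -1.39 (SE 0.16, limma adjusted p = 0.000983). The shSYK cells kept 41.0% and 29.5% of the nc level. In PC-9, 6.63, 7.47 and 6.28 in nc overlapped 6.48, 6.66 and 5.41 in shSYK, with a log2 fold change of -0.12 (95% interval -0.38 to 0.14, adjusted p = 0.685). Both calls held under every alternative that tested the gene (a filter at 5 FPKM left it out), with adjusted p at most 0.00451 in EBC-1 and 0.00751 in HCC827.

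CYP1B1 (ENSG00000138061, chromosome 2, 38066973 to 38109902) encodes a P450 that oxidises polycyclic hydrocarbons and oestradiol, and AHR induces it. HCC827 alone gave a call. There the nc libraries held 3.66, 3.28 and 3.30 FPKM and the shSYK libraries 2.05, 2.33 and 2.24, a log2 fold change of -0.46 (SE 0.076, limma adjusted p = 0.00369), which was lost in a fit of all 18 libraries (adjusted p = 0.0847). The nc libraries of the other 2 lines were spread widely. EBC-1 held 10.4, 16.7 and 9.15 FPKM in nc and 9.22, 8.29 and 10.2 in shSYK (log2 fold change -0.31, 95% interval -0.77 to 0.14, adjusted p = 0.224). PC-9 held 4.68, 9.44 and 6.97 in nc and 9.01, 10.1 and 10.4 in shSYK (log2 fold change 0.47, 95% interval -0.011 to 0.96, adjusted p = 0.333). CYP1B1-AS1 runs over 36456 bases of the gene on the opposite strand and had 2 to 55 reads per library. RMDN2 shares 170 bases on the opposite strand (6 to 40 reads), and RMDN2-AS1 shares 69 on the same strand (0 to 5 reads). Whether the counting used the strand is not stated, so reads of these genes and of CYP1B1 may not be fully separated.

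EPHX1 (ENSG00000143819, chromosome 1, 225810092 to 225845563) encodes microsomal epoxide hydrolase, which opens the epoxides that P450 enzymes make. It was about as abundant as ABCC3. HCC827 shSYK cells kept 69.4% of the nc level, with 38.8, 36.7 and 42.3 FPKM in nc and 26.8, 27.0 and 28.0 in shSYK (log2 fold change -0.51, SE 0.064, limma adjusted p = 0.00124, at most 0.0131 under any alternative). EBC-1 held 38.4, 34.8 and 38.6 in nc and 31.8, 33.5 and 29.0 in shSYK, a smaller fall of 0.24 on the log2 scale (SE 0.079, limma adjusted p = 0.0412). This call was lost after rescaling to an equal sum (0.205), under limma-voom (0.121), with no filter (0.0820), with no variance trend (0.0555), in a fit of all 18 libraries (0.182), and without nc replicate 1 (0.138), nc replicate 3 (0.122), shSYK replicate 1 (0.0909) or shSYK replicate 3 (0.101). In PC-9, 49.9, 27.9 and 36.1 FPKM in nc enclosed the shSYK values of 40.9, 35.9 and 39.5 (log2 fold change 0.066, 95% interval -0.40 to 0.53). EPHX1 shares 28 bases with TMEM63A, which had 548 to 2034 reads per library, and 4681 bases with the antisense gene AL591895.1, which had 16 to 39.

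Of the 8 genes other than ABCC3 and CYP2S1, 6 passed the filter in EBC-1. Of these, 4 fell and 0 rose, against 21.6% lower and 23.1% higher over all genes tested in that line. The whole set was chosen with earlier results of these data known, so the counts here only describe it beside those shares. The 2 EBC-1 genes without a call were ABCC4 and CYP1B1. In PC-9, 7 of the 8 had both groups at the filter or above, and 2 of these rose (ABCC5 and ABCG2) and 0 fell, against 0.678% higher and 1.41% lower over all genes. At an unadjusted p under 0.05, 1881 of the 12089 PC-9 genes tested had a difference, and 253 held after adjustment. In HCC827, of the 7 other than ABCG2, 4 fell (ABCC2, CYP1B1, CYP24A1 and EPHX1), 0 rose and 3 had no call, against 20.7% lower and 17.2% higher. The median log2 fold change over the tested genes among the 8 was -0.28 for EBC-1, 0.12 for PC-9 and -0.24 for HCC827, beside 0.0090, 0.0088 and -0.0053 over all genes tested. Without the gene that passed through 1 group (ABCC4 for PC-9 and ABCG2 for HCC827), it was 0.17 for PC-9 and -0.46 for HCC827.

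Without PC-9 nc replicate 1, the log2 fold changes of the pumps in PC-9 were -0.28 for ABCC1, 0.036 for ABCC2, -0.71 for ABCC3, -0.35 for ABCC4, 0.49 for ABCC5 and 1.05 for ABCG2. Those of the enzymes were 0.24 for CYP1B1, -1.07 for CYP2S1, -0.13 for CYP24A1 and 0.28 for EPHX1. Of the 8, the 2 calls were again ABCC5 (limma adjusted p = 0.0236) and ABCG2 (0.00531).

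Counted without a test, over the 8 genes, 4 were lower without overlap in EBC-1 (27.2% of all genes tested were), while PC-9 had 2 (12.3%) and HCC827 had 4 (27.6%). ABCG2 was higher without overlap in each line, under the filter in EBC-1, and ABCC5 in PC-9, so those higher numbered 1 for EBC-1 (29.7% of all genes tested), 2 for PC-9 (11.4%) and 1 for HCC827 (24.7%). The lower genes of PC-9 include ABCC4, and the higher gene of HCC827 is ABCG2. Each passed the filter in that line only through the group where it is high, so these counts are not on a par with the shares. An exact two-sided permutation test of 3 libraries against 3 cannot give a p below 0.1, so single genes cannot pass 0.05 on that test.

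**Figure D2:**
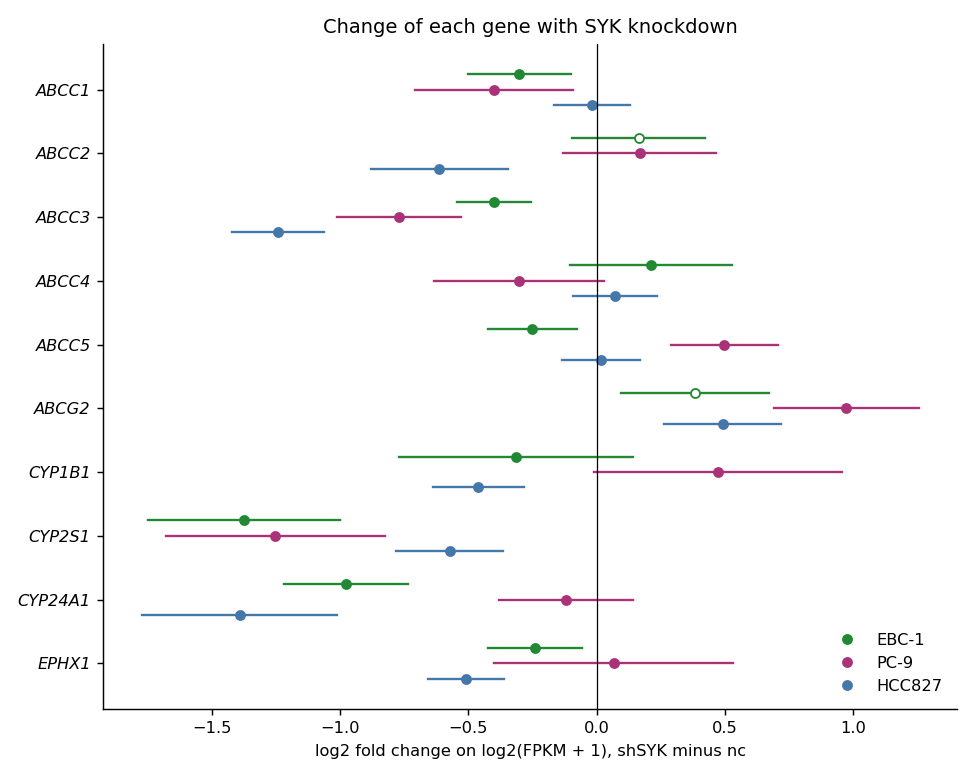
Log2 fold change on log2(FPKM + 1), shSYK minus nc, of the 10 genes (horizontal axis) with 95% intervals from limma, 3 libraries per group, in EBC-1 (green), PC-9 (purple) and HCC827 (blue), with open circles for genes under the filter. CYP24A1 is near 0 in PC-9 and at -0.98 and -1.39 in the other lines, and ABCC5 lies at -0.25 in EBC-1 and 0.50 in PC-9.

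The effect of the knockdown was compared between lines for the 8 genes in a limma fit of all 18 libraries, 24 differences in all, adjusted over all genes tested. In total 11 passed the threshold, for 6 genes: 4 for EBC-1 against PC-9, where 19.8% of all genes did, 2 for EBC-1 against HCC827 (21.8%) and 5 for PC-9 against HCC827 (7.5%). The 3 comparisons share libraries. The counts include ABCG2 for EBC-1 against PC-9 and for PC-9 against HCC827, though it passed the filter only through its shSYK libraries. With no filter, its call for PC-9 against HCC827 was lost (limma adjusted p = 0.0847). ABCC5 differed in all 3 comparisons, by -0.75 for EBC-1 against PC-9 (SE 0.088, limma adjusted p = 3.09e-05) and 0.48 for PC-9 against HCC827 (adjusted p = 0.00263). The third difference, EBC-1 against HCC827, was -0.27 (adjusted p = 0.0403), and its call was lost after rescaling to an equal sum (0.155), under limma-voom (0.0813) and without any of 9 libraries (0.0551 to 0.106). The fall of CYP24A1 was smaller in PC-9 than in HCC827, by 1.27 (SE 0.20, limma adjusted p = 0.000643), and less than in EBC-1, by a difference of -0.86 (adjusted p = 0.00623). Its falls in EBC-1 and HCC827 differed by 0.41 (95% interval -0.0034 to 0.83, adjusted p = 0.149). ABCC2 fell in HCC827 and did not fall in PC-9, where its log2 fold change was 0.17 with no call. These effects differed by 0.78 (SE 0.17, limma adjusted p = 0.00752, and 0.0752 after rescaling to an equal sum). The rise of ABCG2 was larger in PC-9 than in EBC-1 (difference -0.59, limma adjusted p = 0.00753) on the log2(FPKM + 1) scale, which compresses EBC-1 most, and ABCG2 passed the filter of this fit through its shSYK libraries (adjusted p = 0.0170 with no filter). With a pseudocount of 0.1 that difference was -0.51 and lost its call (adjusted p = 0.187), as it did after rescaling to an equal sum (0.135) and under limma-voom (0.366). For EPHX1, the fall in HCC827 and the value in PC-9 differed by 0.57 (adjusted p = 0.0986). Over the alternatives this difference ran from 0.38 to 0.79, with limma adjusted p from 0.00125 to 0.216. The largest difference and the lowest adjusted p came without PC-9 nc replicate 1.

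Levels in the nc cells were set side by side between lines as a description, since the 3 tables may have been scaled separately. ABCC1 ran in the order EBC-1, PC-9, HCC827, with no overlap between neighbours and 2.77-fold from highest to lowest. ABCC2 ran HCC827, PC-9, EBC-1, with neighbours apart and a 25.1-fold span, and ABCC4 ran the same way over 6.01-fold, with PC-9 and EBC-1 overlapping. ABCC5 ran PC-9, EBC-1, HCC827 over 2.60-fold and ABCG2 ran PC-9, HCC827, EBC-1 over 3.07-fold, with all neighbours apart. CYP1B1 ran EBC-1, PC-9, HCC827 over 3.53-fold, the first 2 overlapping. ABCC3, CYP2S1 and EPHX1 spanned at most 1.15-fold with every neighbour overlapping, and CYP24A1 spanned 1.41-fold with EBC-1 below the others. Rescaled to an equal sum, ABCC3 spanned 1.34-fold with neighbours apart, and CYP2S1, CYP24A1 and EPHX1 changed their order. On the FPKM scale, which divides by gene length, ABCC3 and EPHX1 were the most abundant of the 10 in nc cells of every line, and ABCG2 the scarcest.

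The genes whose log2(FPKM + 1), centred within each line, ran most like that of ABCC3 over the 18 libraries were C1RL (Pearson's r 0.988), ATP5J2 (0.982), ARPC5 (0.972), ENDOD1 (0.971) and MLEC (0.970), out of 10030 genes at 1 FPKM or more in each line. For CYP2S1 they were KRT80 (0.975), SPATA20 (0.969), SDC3 (0.961), GDPD5 (0.960) and AGFG2 (0.959). The libraries share the knockdown contrast, so any gene that falls in each line in like steps scores high. ATP5J2, for example, went from 89.4 to 64.0 FPKM for EBC-1, from 56.8 to 25.1 for PC-9 and from 97.0 to 32.9 for HCC827. KRT80 went from 55.9 to 26.2, from 78.3 to 39.7 and from 92.0 to 58.4. Between ABCC3 and CYP2S1 themselves, r was 0.720.

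The surrounding pathway was read from 6 lists of 108 genes, of which 107 were matched by symbol. With the filter, 43 genes were tested for EBC-1, 50 for PC-9 and 48 for HCC827, and 24, 3 and 28 changed. In EBC-1, 12 rose and 12 fell. In PC-9, 1 rose and 2 fell, and in HCC827, 9 rose and 19 fell. Their median log2 fold change was 0.043 for EBC-1, -0.018 for PC-9 and -0.17 for HCC827. The background shares given above, 44.7%, 2.09% and 38%, apply to these counts.

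**Figure D3:**
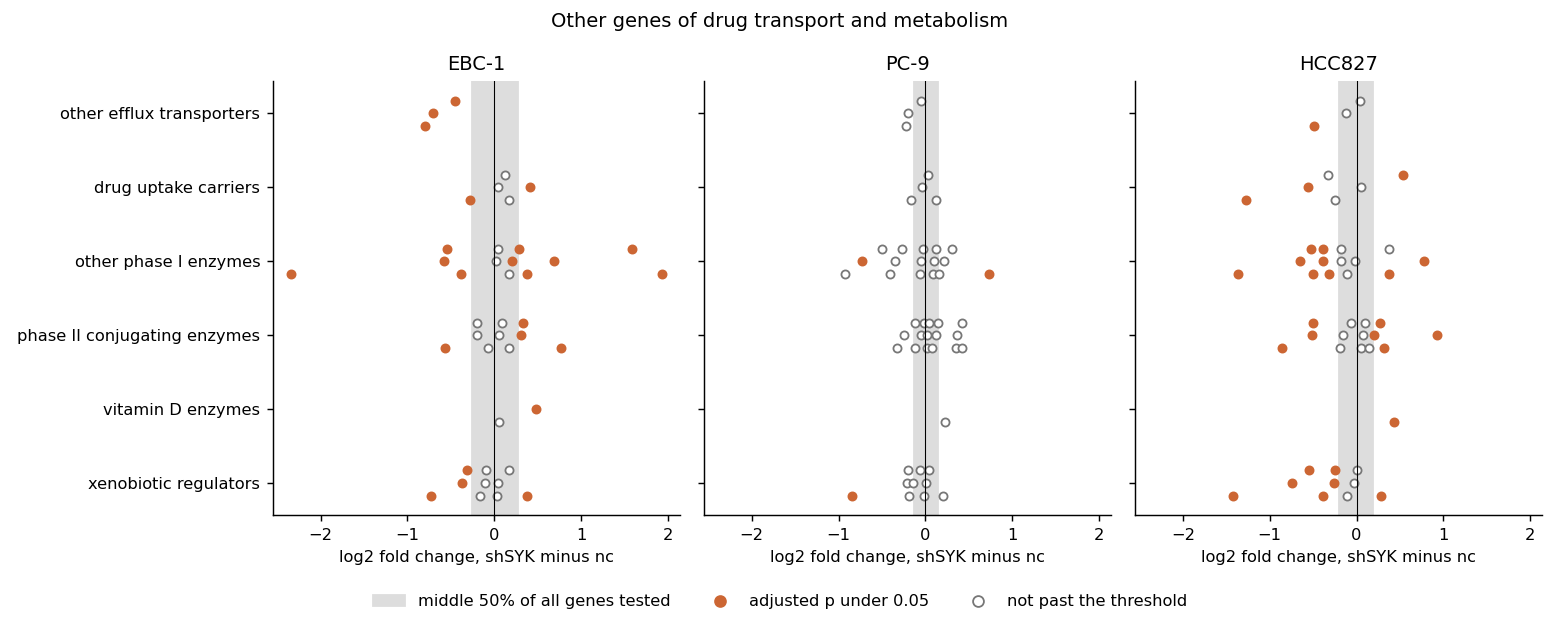
Log2 fold change on log2(FPKM + 1), shSYK minus nc, of the tested genes on the 6 lists in each cell line, with filled points at a limma adjusted p under 0.05, open points otherwise, and a grey band for the middle 50% of all genes tested. Of the regulators, 6 fell in HCC827 and 3 in EBC-1, and PC-9 has 3 filled points in all.

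Among the regulators, 10 were tested in each line. In EBC-1, 1 rose and 3 fell, in PC-9, 0 rose and 1 fell, and in HCC827, 1 rose and 6 fell. RXRA, the partner of VDR and of other nuclear receptors, was the regulator that passed the threshold in all 3 lines. It stood at -0.32 on the log2 scale for EBC-1 (limma adjusted p = 0.0475), -0.85 for PC-9 (0.0484) and -0.74 for HCC827 (0.000251). The nc libraries held 31.5, 20.6 and 24.8 FPKM in PC-9 and 19.1, 18.5 and 19.1 in HCC827, and the shSYK means were 13.6 ± 1.10 and 10.9 ± 0.676. In EBC-1 the groups overlapped, and the call was lost after rescaling to an equal sum (0.128), with no filter (0.124), with no variance trend (0.0569), in a fit of all 18 libraries (0.0502) and without any of 5 of the 6 libraries (0.0676 to 0.146). In PC-9 it was lost with no filter (0.135) and without any of 4 libraries (0.169 to 0.224), and it was -0.69 (adjusted p = 0.0181) without nc replicate 1. In HCC827 it held under every alternative. VDR fell by 0.26 in HCC827 (adjusted p = 0.0133, and 0.0642 in a fit of all 18 libraries), and was at 0.044 in EBC-1 and -0.012 in PC-9 with no call.

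AHR fell by 0.55 in HCC827, from 9.51 ± 0.978 to 6.19 ± 0.726 FPKM (limma adjusted p = 0.00473). In EBC-1, its log2 fold change was 0.17 (adjusted p = 0.141, and 0.0380 after rescaling to an equal sum), and in PC-9 it was -0.21 (adjusted p = 0.591). TIPARP, an enzyme that AHR induces and that restrains it, rose in HCC827 (0.28, adjusted p = 0.0156), a call lost in a fit of all 18 libraries (0.151) and without nc replicate 1 (0.0548) or shSYK replicate 2 (0.0572). ARNT had log2 fold changes of -0.17, 0.042 and -0.11 in EBC-1, PC-9 and HCC827, with no call. In the NFE2L2 branch, NFE2L2 itself rose in EBC-1 (0.38, adjusted p = 0.0319), a call lost with no filter (0.0965) and without any of 5 libraries (0.0624 to 0.105). Its partner MAFG fell there (-0.37, adjusted p = 0.00729), and KEAP1 fell in HCC827 (-0.25, adjusted p = 0.0205). The KEAP1 call was lost in a fit of all 18 libraries (0.147) and without nc replicate 1 (0.0608), nc replicate 3 (0.0576) or shSYK replicate 3 (0.0565). PPARA, a receptor for fatty acids, was at 0.032 in EBC-1 and -0.18 in PC-9 with no call. Of the vitamin D enzymes, CYP2R1, which makes the first hydroxylation of vitamin D, rose in EBC-1 (0.48, adjusted p = 0.0222, lost with no filter and without any of 4 libraries) and HCC827 (0.43, adjusted p = 0.0127), and CYP27B1, which activates the hormone, was at 0.051 in EBC-1 with no call.

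**Figure D4:**
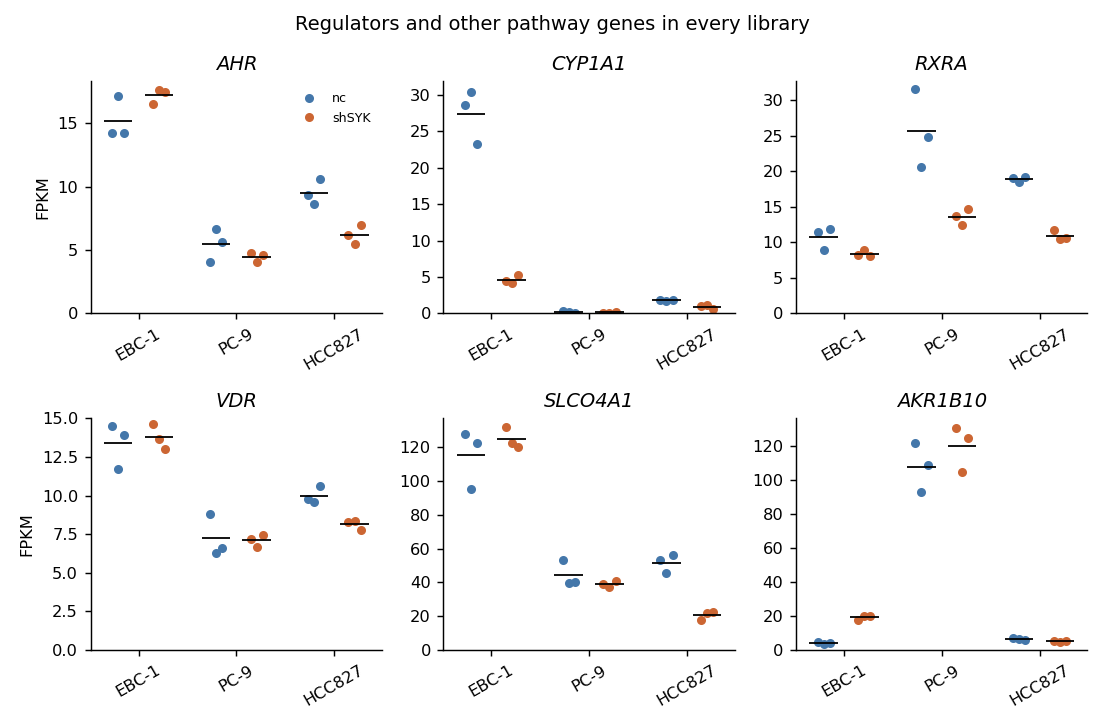
FPKM (vertical axis, linear, from 0) of AHR, CYP1A1, RXRA, VDR, SLCO4A1 and AKR1B10 in each library, with nc in blue, shSYK in orange and a bar at the mean of 3 libraries. CYP1A1 was at 27.4 FPKM in EBC-1 nc cells and 4.62 in shSYK cells, and RXRA was lower in shSYK libraries of PC-9 and HCC827 without overlap.

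In EBC-1, the other phase I enzymes held the largest changes on the 6 lists. There, 6 of 13 tested rose and 4 fell, in PC-9, 1 of 16 rose and 1 fell, and in HCC827, 2 of 14 rose and 7 fell. CYP1A1, the P450 most closely tied to AHR, fell in EBC-1 from 28.6, 30.4 and 23.3 FPKM in nc to 4.62 ± 0.536 in shSYK (log2 fold change -2.34, SE 0.11, limma adjusted p = 3.67e-05). It was called in EBC-1 and, at 1.78 against 0.936 FPKM, in HCC827 (-0.53, adjusted p = 0.0141), where it passed the filter only through the nc group and was not called with no filter (0.0519), and had 3 to 8 reads per library in PC-9. AKR1B10, an aldo-keto reductase under NFE2L2 control, rose in EBC-1 from 4.38 ± 0.634 to 19.4 ± 1.21 FPKM (log2 fold change 1.93, adjusted p = 4.13e-05) and fell in HCC827 (-0.31, adjusted p = 0.0153, lost after rescaling to an equal sum, under limma-voom and without shSYK replicate 2). AKR1C2, another reductase, rose in EBC-1 (0.37, adjusted p = 0.0179, lost with no filter and without any of 4 libraries), and AKR1C1 fell in PC-9 (-0.73, adjusted p = 0.0357, lost with no filter and without any of 4 libraries). Each went the other way in the other of these lines, by values given here after they were seen. AKR1C1 rose in EBC-1 from 1.89 to 3.70 FPKM (0.69, adjusted p = 0.00285). AKR1C2 was at 51.2 FPKM in PC-9 nc and 35.9 in shSYK cells, without overlap (-0.50, adjusted p = 0.0795, no call). MAOA, a mitochondrial amine oxidase named here after its values were seen, was the PC-9 list gene that rose (0.73, adjusted p = 0.0489). That call was lost with a pseudocount of 0.1 (0.0509), with no variance trend (0.0506), with no filter (0.147), after rescaling to an equal sum (0.0880), under limma-voom (0.0589), and without nc replicate 3 or any shSYK replicate (0.144 to 0.226). CES2, a carboxylesterase that activates ester prodrugs, fell in EBC-1 (-0.58, adjusted p = 0.00177) and HCC827 (-0.50, adjusted p = 0.00165).

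Of the phase II enzymes, 3 of 10 rose and 1 fell in EBC-1, 0 of 16 moved in PC-9, and 4 of 14 rose and 3 fell in HCC827. MGST1, a microsomal glutathione transferase, rose in EBC-1 from 27.1 ± 2.19 to 46.9 ± 4.19 FPKM (0.77, adjusted p = 0.000785). NNMT, a methyltransferase of nicotinamide, rose in HCC827 from 32.6 ± 1.82 to 63.1 ± 4.56 FPKM (0.93, adjusted p = 0.000210). GSTO1 rose in EBC-1 (0.33, adjusted p = 0.0165) and HCC827 (0.31, adjusted p = 0.00702). TPMT, which inactivates thiopurines, and GSTK1 rose in HCC827 by 0.27 (adjusted p = 0.0232) and 0.20 (0.0333), calls lost with no filter and without any of 4 libraries each, and for GSTK1 in a fit of all 18 libraries (0.0898). GSTP1, the most abundant of these at 429.7 ± 24.7 FPKM in HCC827 nc cells, fell there to 301.7 ± 5.75 (-0.51, adjusted p = 0.00111).

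The remaining transporters were few. Of the other efflux transporters, 3 of 11 passed the filter, and all 3 fell in EBC-1, 0 moved in PC-9 and 1 fell in HCC827. These were ABCA2, a lipid transporter (-0.79 in EBC-1, adjusted p = 0.00211, and -0.48 in HCC827, adjusted p = 0.00719), ABCA3, which loads surfactant lipids (-0.70, adjusted p = 0.000926), and ABCC10, named here after its values were seen (-0.46, adjusted p = 0.00304). ABCB1, which encodes P-glycoprotein, was under the filter in every line, with 0 to 1 reads for EBC-1, 0 to 8 for PC-9 and 18 to 38 for HCC827. Of the uptake carriers, 1 of 5 rose and 1 fell in EBC-1, 0 of 4 moved in PC-9, and 1 of 6 rose and 2 fell in HCC827. SLCO4A1, an organic anion carrier, fell in HCC827 from 53.4, 45.5 and 56.0 FPKM to 20.9 ± 2.47 (-1.27, SE 0.11, limma adjusted p = 0.000275). In EBC-1, where SLCO4A1 was at 115.0 FPKM in nc cells, it was at 124.7 in shSYK cells.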

How the data were processed

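RNA from the 18 libraries was extracted with TRIzol, sequenced by Novogene (Illumina HiSeq), with alignment to hg38. The submitters' processing notes name CASAVA and HISAT2, and the counting program and annotation are not given in the sources used here. The authors deposited, for each cell line, a table of FPKM per library for 58302 Ensembl genes, of which 19847 are protein-coding. Every FPKM times gene length was a whole multiple of 1 value per library (100% of values within a tolerance of 0.001), which gave back the reads per gene for depth and for limma-voom. These reads cover counting error only.

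The shSYK and nc libraries of a line were compared with limma 3.58.1 (R 4.3.3) on log2(FPKM + 1) with a variance trend, over genes at a mean FPKM of at least 1, and a Benjamini-Hochberg adjusted p under 0.05 over all genes tested was called. Differences between lines came from 1 fit of all 18 libraries. In simulated data, 197 (EBC-1), 198 (PC-9) and 198 (HCC827) of the genes tested were changed by 1 on the log2 scale. The fit recovered 68%, 58.6% and 78.8% of these, with 5, 3 and 8 false calls. Far larger shares of genes were called in the real EBC-1 and HCC827 data, so recovery there may differ. Python 3.11.15 with pandas 2.3.3 and matplotlib 3.10.9 made the summaries and figures.

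The 10 genes, the 6 lists and the tests were chosen with earlier results of these data known. Named beside the 10 were SYK, tested regulators and vitamin D enzymes, up to 4 rises and 4 falls per line among called genes of the other lists at a mean FPKM of at least 5, and the 5 genes most like ABCC3 and CYP2S1. Of the genes this rule names, 3 are counted in the lists and not reported here. The alternatives were another pseudocount (0.1), no filter or a filter at 5 FPKM, TPM rescaling, quantile normalization, no variance trend, limma-voom, a fit of all 18 libraries, the replicate number as a block, and each library left out. No library was left out of the reported values.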

Additional observations from a re-analysis of the deposited data

Results flagged for a closer look

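The change with shSYK was unlike between lines in 11 of the 24 differences tested for the 8 genes, by a test of the difference itself in a limma fit of all 18 libraries, adjusted over all genes tested. Each value below is the log2 fold change of the first line minus that of the second. For EBC-1 against PC-9, the differences were 0.51 for ABCC4 (limma adjusted p = 0.0317), -0.75 for ABCC5 (3.09e-05), -0.59 for ABCG2 (0.00753) and -0.86 for CYP24A1 (0.00623). For EBC-1 against HCC827, they were 0.78 for ABCC2 (0.00328), where EBC-1 lay under the filter of 1 FPKM, and -0.27 for ABCC5 (0.0403). For PC-9 against HCC827, they were 0.78 for ABCC2 (0.00752), 0.48 for ABCC5 (0.00263), 0.48 for ABCG2 (0.0462), 0.93 for CYP1B1 (0.0482) and 1.27 for CYP24A1 (0.000643).

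The 2 effects had opposite signs for ABCC4 and ABCC5 in EBC-1 against PC-9, for ABCC5 in EBC-1 against HCC827, for ABCC2 in EBC-1 and in PC-9 against HCC827, and for CYP1B1 in PC-9 against HCC827. A line's own call on both sides, one lower and one higher, was there for ABCC5 in EBC-1 against PC-9 only. Several of these calls lay near the threshold and were lost when single libraries were left out. The call was lost without any of 6 libraries for ABCC4 (adjusted p 0.0512 to 0.0794), 9 for ABCC5 in EBC-1 against HCC827 (0.0551 to 0.106), 11 for ABCG2 in PC-9 against HCC827 (0.0629 to 0.103) and 10 for CYP1B1 (0.0691 to 0.108). For the others, no single library left out ended the call. With no filter, the calls of ABCC4 (0.0689), ABCG2 in PC-9 against HCC827 (0.0847) and CYP1B1 (0.112) were lost, and after rescaling to an equal sum those of ABCC2 in PC-9 against HCC827 (0.0752), ABCC5 in EBC-1 against HCC827 (0.155), ABCG2 in both comparisons (0.135 and 0.213) and CYP1B1 (0.108). ABCG2 passed the filter of this fit through its shSYK libraries.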

How the results depend on the processing

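Directions held for the called genes named in the text, and for the called differences among the 8 genes, under each alternative that tested them (a filter at 5 FPKM leaves out genes under it). In PC-9, 253 genes changed, against 47 with no filter, 480 after TPM rescaling, 505 with quantile normalization, 480 with limma-voom and 1511 in a fit of all 18 libraries, and the pathway list counts there were 0, 5 and 10 with no filter, TPM rescaling and quantile normalization, and 11 in the fit of all 18 libraries. A filter at 5 FPKM gave 3579 genes in EBC-1, 18 list genes in HCC827, and 1611 (EBC-1 against PC-9), 1682 (EBC-1 against HCC827) and 546 (PC-9 against HCC827) differences between lines, with fewer genes tested. Leaving out single libraries gave 3761 to 6309 genes in EBC-1, 7 (without shSYK replicate 1) to 621 (without nc replicate 1) in PC-9 and 3362 to 3949 in HCC827. PC-9 counts without nc replicate 2, nc replicate 3, shSYK replicate 2 and shSYK replicate 3 were 503, 24, 16 and 20. List genes changed numbered 15 (without EBC-1 nc replicate 1) to 24 in EBC-1, 0 to 7 in PC-9 and 25 to 28 in HCC827, and differences between lines 1833 to 4597, 2137 to 2710 and 647 to 2401, the highest of the first and last without PC-9 nc replicate 1. Rescaling to an equal sum turned the split of calls from 2876 up and 2686 down to 4001 and 1891 in EBC-1, and from 2066 and 2488 to 2471 and 1900 in HCC827. The cause of these shifts was not tested.

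Reversals fell on values with no call. ABCC1 in HCC827 was 0.042 with TPM, 0.043 with quantile normalization, 0.051 with limma-voom, and -0.070 to 0.015 without single libraries. The ABCC2 difference of EBC-1 against PC-9 was 0.14 with a pseudocount of 0.1, 0.22 with TPM, 0.020 with quantile normalization, 0.32 with limma-voom, and -0.087 to 0.13 without single libraries. The ABCG2 difference of EBC-1 against HCC827 was 0.0014 with a pseudocount of 0.1, 0.027 with TPM and 0.065 with limma-voom. With TPM, TIPARP and KEAP1 in EBC-1 were 0.029 and 0.019, MAFG in PC-9 was -0.017 (-0.0045 with limma-voom) and NFE2L2 in HCC827 was 0.030 (0.0030 with quantile normalization, 0.037 with limma-voom). VDR in PC-9 was 0.010 with quantile normalization. Leaving out single libraries gave ranges across 0 of -0.017 to 0.048 for ABCC5 in HCC827, -0.13 to 0.28 for EPHX1 in PC-9, -0.021 to 0.20 for the ABCC1 difference of EBC-1 against PC-9 and -0.013 to 0.39 for the CYP1B1 difference of EBC-1 against HCC827. In EBC-1 such ranges were -0.014 to 0.124 for CYP27B1, -0.25 to 0.051 for TIPARP, -0.041 to 0.0999 for VDR and -0.0020 to 0.055 for PPARA. In PC-9 they were -0.0034 to 0.078 for ARNT, -0.30 to 0.040 for KEAP1, -0.072 to 0.093 for MAFG and -0.095 to 0.12 for VDR, and in HCC827 -0.060 to 0.023 for NFE2L2 and -0.025 to 0.045 for MAFG.

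Same-numbered libraries did not regularly deviate together (correlations of -0.22 to 0.034 in EBC-1, -0.12 to 0.33 in PC-9 and 0.0017 to 0.063 in HCC827). Differently numbered nc and shSYK libraries reached 0.26 in EBC-1 (nc replicate 2 with shSYK replicate 3) and 0.38 in PC-9 (nc replicate 1 with shSYK replicate 3). The replicate numbers were therefore not taken as pairs. With the number as a block, 4326, 172 and 4111 genes changed in EBC-1, PC-9 and HCC827, and the calls of ABCC1 (adjusted p = 0.0685), ABCC5 (0.0691), EPHX1 (0.113), RXRA (0.0934) and CYP2R1 (0.0592) in EBC-1, of ABCC5 in PC-9 (0.0975) and of GSTK1 in HCC827 (0.0717) were lost. So were the differences of ABCC4 in EBC-1 against PC-9 (0.0560), ABCC5 in EBC-1 against HCC827 (0.0809), and ABCG2 (0.0901) and CYP1B1 (0.0788) in PC-9 against HCC827. Genes at few reads, ABCG2 above all, are the least precise.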
